A study of Rattus norvegicus with 26 samples.

Results

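Values were found for 6 of the 10 genes considered here: fibronectin (Fn1), the collagen IV chain Col4a1, the laminin chain Lamc1, the matrix glycoprotein Sparc and the collagen I chains Col1a1 and Col1a2. They were found as probe sets, groups of array probes for a transcript, that carried 1 gene symbol, and each of the 6 genes had 1 such probe set, out of 14506 genes with at least 1. The other 4 genes, Col4a2, Lamb1, Lama2 and Nid1, matched no probe set that carried 1 gene symbol and have no values here. The set was chosen by the log2 difference of Fn1 between the high and low diets in these same rats. The values behind the choice of the other genes are not recorded, so their diet differences are treated as used too. Differences between diets are therefore given as a description, without a test that could support them.

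Hippocampal RNA of male F344 rats was measured at 18 months of age, after 5 to 6 months on purified chow that held vitamin D3 at 100 IU per kg (low), at 1000 (control) or at 10000 (high), to ask whether the vitamin alters gene expression there. There were 8, 9 and 9 rats on these diets, with 1 array for each rat. All rats were of 1 sex, strain and age and shared the base diet. The RNA came from blocks of hippocampal tissue with all their cell types, so fewer cells of a type and less RNA per cell cannot be told apart.

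Basement membranes are thin sheets of matrix that wrap brain vessels and lie beneath the meninges and the end-feet of astrocytes. Laminin trimers and a network of collagen IV form their core, and nidogen and perlecan link these layers. Fibronectin is a soluble and fibrillar glycoprotein that joins collagens to integrins at the cell surface, and Sparc is a secreted glycoprotein that binds collagens and modulates how cells attach to matrix. Collagen I, a trimer of Col1a1 and Col1a2 chains, is the main fibrillar collagen of connective tissue and in the brain is made mostly by fibroblasts of meninges and larger vessels.

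All 10 markers of the hippocampal neuron list lay above the intensity minimum of 6.94 log2, the median of all probe sets, as did 8485 of all 14506 genes. No other tissue was measured, so this does not test the tissue label. Ttr, which the choroid plexus makes, ranged from 6.69 to 12.91 log2 over the rats. It was the only 1 of 9 choroid plexus markers with a probe set that reached the minimum. The dim ones also varied, with residual SDs, taken within diets, from 0.112 (Aqp1) to 0.666 log2 (Clic6). The median residual SD of all genes was 0.079. Array medians lay between 6.92 and 6.96 log2. Precision is limited by the number of arrays. Of the matrix genes, Fn1, Lamc1 and Sparc lay above the minimum and were fitted with the 8485 tested genes. Col4a1, Col1a1 and Col1a2 lay below it, and their values come from a fit of all 14506 genes. Whether these 3 dim probe sets exceed background is not known, since no detection call was used here.

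One stretch of sequence bears on the missing chain of collagen IV. Col4a1 and Col4a2 lie head to head on chromosome 16 of assembly GRCr8, with starts that lie 77 bases apart, and their promoter windows overlap by 176 bases. The Col4a1 probe set is the only measure of the pair here. The RefSeq window of Col4a1, chr16:84885347-84885646 on the plus strand, runs from 250 bases before to 50 after the gene start and is shown 5′ to 3′ with GC boxes (GGGCGG) and CCAAT boxes on either strand in capitals.
Col4a1: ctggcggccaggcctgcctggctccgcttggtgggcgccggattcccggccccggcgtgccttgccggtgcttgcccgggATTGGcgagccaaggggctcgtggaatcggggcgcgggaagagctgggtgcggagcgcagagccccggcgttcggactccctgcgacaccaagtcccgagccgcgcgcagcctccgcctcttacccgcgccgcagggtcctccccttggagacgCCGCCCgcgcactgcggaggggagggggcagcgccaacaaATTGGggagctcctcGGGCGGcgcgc
It holds 2 GC boxes and 2 CCAAT boxes. Of all 33469 RefSeq promoter windows of this length, 33.1% hold a GC box and 37.5% a CCAAT box, on either strand. Windows were found for 8 of the 10 genes, not for Fn1 and Col1a1. GC boxes stood in those of Lama2, Lamb1, Lamc1, Col4a2, Col4a1 and Nid1, and CCAAT boxes in those of Lama2, Col1a2, Col4a2, Col4a1 and Nid1, while a TATAAA match on either strand, present in 14.2% of all windows, stood in that of Col1a2. Col4a1 and Col4a2 are partly counted on the same bases. The direct repeat known for binding the vitamin D receptor, searched as its consensus on both strands, stood in 0 of the 8 windows and in 0.0239% of all windows.

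Fn1 was lowest on the high diet. It averaged 8.80 ± 0.20 log2 in low-diet rats (SD, n = 8), 8.75 ± 0.14 in control rats (n = 9) and 8.56 ± 0.10 in high-diet rats (n = 9). On low the lowest, median and highest rats had 8.56, 8.82 and 9.08 log2. On control these were 8.59, 8.71 and 9.03, and on high 8.39, 8.60 and 8.67. All 9 high-diet rats lay below the means of the control rats and of the low-diet rats, and 4 of 9 lay below every control rat and 4 below every low-diet rat, but the ranges overlapped. Of all tested genes 1.33% had every high-diet rat below the control mean, and 1.36% below the low mean, while 3.94% had at least 4 high-diet rats below every control rat and 3.83% below every low-diet rat.

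The difference of Fn1 was -0.20 log2 for high minus control (SE 0.066, 95% interval -0.33 to -0.06, a ratio of 0.874) and -0.25 for high minus low (SE 0.068, interval -0.385 to -0.107, a ratio of 0.843). For low minus control it was +0.05 (SE 0.068, interval -0.088 to 0.19), within the spread between rats. The intervals of high against both other diets lay below 0, but Fn1 was chosen by its difference in these rats, so they do not test it. In limma the adjusted p of Fn1 was 0.991 for high minus control and 0.625 for high minus low. Low and control did not differ beyond their spread.

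In limma's moderated tests, which share the spread over genes, 0 of the 3 tested matrix genes were called at an adjusted p under 0.17 in any comparison of diets, where 0% of all tested genes were called. Unadjusted p under 0.05 were found in 613 genes (7.22%) for high minus low, 393 (4.63%) for high minus control, 193 (2.27%) for low minus control and 392 (4.62%) over the 3 diets. The unmoderated test also called 0 genes, with 608 genes at that unadjusted level for high minus low, 400 for high minus control, 201 for low minus control and 376 over the 3 diets.

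**Figure D1:**
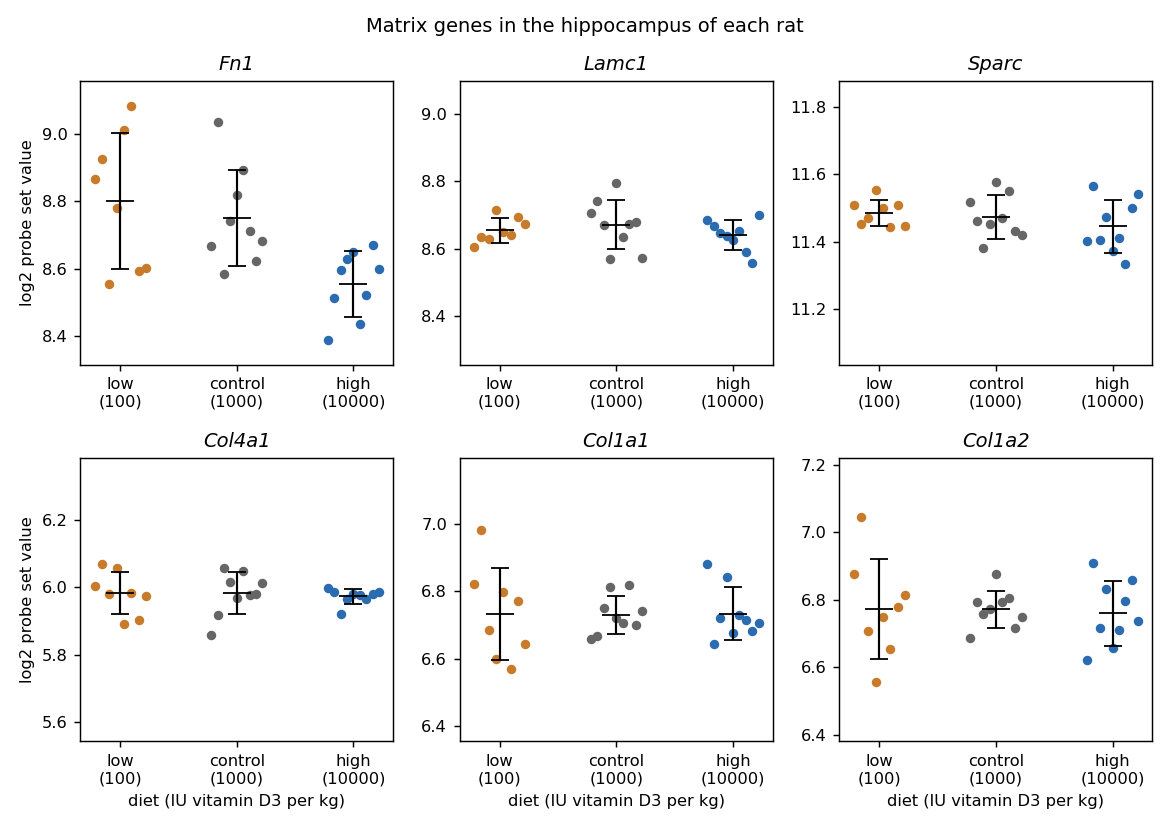
Log2 probe set values of 6 matrix genes in each rat (points) by diet, with the mean and SD in black; every panel spans the same log2 width. Fn1 on the high diet lies between 8.39 and 8.67, and for each of the 6 genes the ranges of the 3 diets overlap.

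The rats of 1 diet also differed among themselves in Fn1. Its residual SD of 0.151 log2 was larger than that of 96.2% of tested genes, whose median was 0.076. The SD was 0.202 on low, 0.142 on control and 0.097 on high, so the rats on high were the most alike. The rats were housed in pairs, and rats of a diet with the same number in the array description, 1 marked and 1 unmarked, were taken as cage mates. The labels do not say that this number is a cage, so every value by cage rests on that reading. Low rats 5 and 6, read as cage mates, had 9.01 and 9.08 log2, and rats 7 and 8, also cage mates, had 8.59 and 8.60. Rats 1 and 2 had 8.87 and 8.93, whereas rats 3 and 4 of the fourth low-diet cage had 8.56 and 8.78. The pair farthest apart was control rats 10 and 11, at 9.03 and 8.59. Over all 12 cages with both rats, mates differed by a median of 0.075 log2 in Fn1, and the 88 other pairs of the same diet by 0.147. For Col4a1, Sparc, Col1a1 and Col1a2 mates were no closer than other pairs, with medians of 0.057, 0.066, 0.102 and 0.1 for mates and 0.041, 0.063, 0.072 and 0.088 for the others. For Lamc1 the medians were 0.035 and 0.054. Over all tested genes the correlation between cage mates, estimated as 1 shared value in limma, was 0.136. How many tested genes had mates as close as in Fn1 was not counted, so this closeness cannot be called particular to Fn1.

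Because cage mates may not be independent, the Fn1 differences were also taken over the means of 14 cages. High minus low was then -0.25 (SE 0.073, interval -0.404 to -0.095, 5 and 4 cages) and high minus control -0.19 (SE 0.069, interval -0.336 to -0.044, 5 cages each). Both stayed near the values over rats, but they come from the rats by which Fn1 was chosen and add no support.

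**Figure D2:**
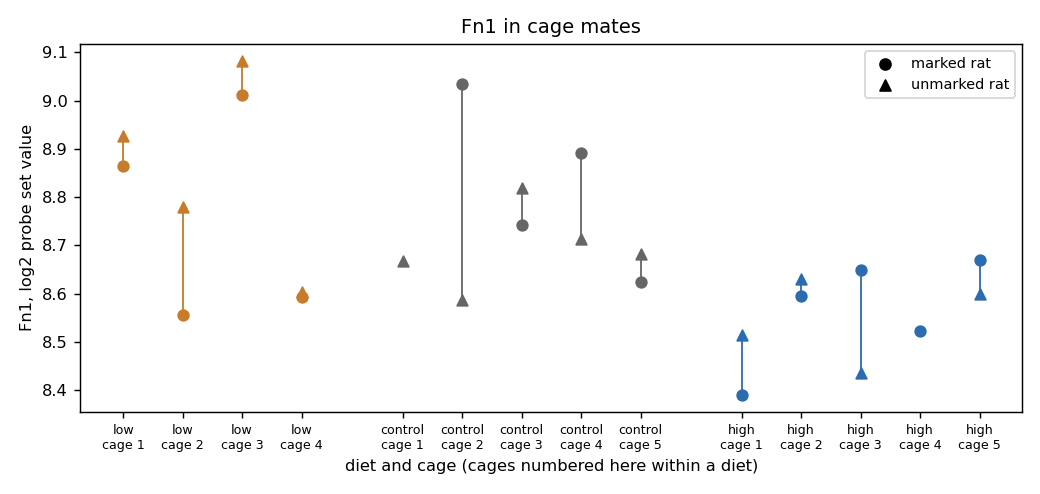
Log2 value of Fn1 in each rat, with cage mates joined by a line, in order of dose; cages are numbered within a diet for the plot and symbols give the tail mark. The low-diet cage at the top holds rats 5 and 6 at 9.01 and 9.08, and no high-diet rat exceeds 8.67.

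Lamc1, the gamma 1 chain shared by most laminins, was nearly level over the diets. It averaged 8.66 ± 0.04 log2 in low-diet rats (SD, n = 8), 8.67 ± 0.07 in control rats (n = 9) and 8.64 ± 0.04 in high-diet rats (n = 9). The low-diet rats had a lowest, median and highest value of 8.61, 8.64 and 8.72, the control rats 8.57, 8.67 and 8.79 and the high-diet rats 8.56, 8.65 and 8.70. The groups overlapped almost fully, and the difference was -0.03 for high minus control (SE 0.027, interval -0.086 to 0.025) and -0.015 for high minus low (SE 0.028, interval -0.072 to 0.042).

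Sparc averaged 11.49 ± 0.04 log2 in low-diet rats (SD, n = 8), 11.47 ± 0.06 in control rats (n = 9) and 11.45 ± 0.08 in high-diet rats (n = 9). Its lowest, median and highest rats had 11.44, 11.49 and 11.55 on low, 11.38, 11.46 and 11.58 on control and 11.34, 11.41 and 11.57 on high. Of the high-diet rats 5 of 9 lay below every low-diet rat and 1 lay above every one, so the high-diet rats spread to both sides. At least 4 high-diet rats lay below every low-diet rat in 3.83% of all tested genes. The share with at least 5 was not taken. Sparc differed by -0.04 for high minus low (SE 0.031, interval -0.104 to 0.024) and by -0.03 for high minus control (SE 0.030, interval -0.091 to 0.034).

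Col4a1, the alpha 1 chain of the collagen IV network, averaged 5.98 ± 0.06 log2 in low-diet rats (SD, n = 8), 5.98 ± 0.06 in control rats (n = 9) and 5.97 ± 0.02 in high-diet rats (n = 9). Its rats ranged from 5.89 to 6.07 on low, 5.86 to 6.06 on control and 5.92 to 6.00 on high. High minus control was -0.01 (interval -0.064 to 0.046) and high minus low was also -0.01 (interval -0.067 to 0.047), and the high-diet range lay inside that of both other diets.

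Col1a1 averaged 6.73 ± 0.14, 6.73 ± 0.06 and 6.73 ± 0.08 log2 on low, control and high (SD, n = 8, 9 and 9). Col1a2 averaged 6.77 ± 0.15, 6.77 ± 0.06 and 6.76 ± 0.10 in the same order. No diet stood apart for either chain. The interval of high minus control was -0.085 to 0.09 for Col1a1 and -0.107 to 0.084 for Col1a2, and that of high minus low was -0.09 to 0.089 for Col1a1 and -0.112 to 0.085 for Col1a2. The low-diet rats were the most spread, from 6.57 to 6.98 for Col1a1 and from 6.56 to 7.05 for Col1a2, and low rat 2 was the highest rat of that diet for both chains.

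Over the matrix genes together, 3 of 3 tested genes had a lower mean on high than on low, where 44.8% of all tested genes did, with a median difference of -0.04 log2 against +0.01 for all tested genes. For high minus control 3 of 3 were lower, against 49.4% of all, with a median of -0.03. For low minus control 1 of 3 was lower, against 55.9% of all. In the fit of all genes 6 of 6 were lower on high than on low (47.4% of all genes) and 5 of 6 lower on high than on control (45.8%), with medians of -0.014 and -0.02, and 1 of 6 lower on low than on control (49.1%). The choice of the genes used the same diet values, so nothing is read from these counts, and apart from Fn1 no difference exceeded 0.04 log2 in size.

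**Figure D3:**
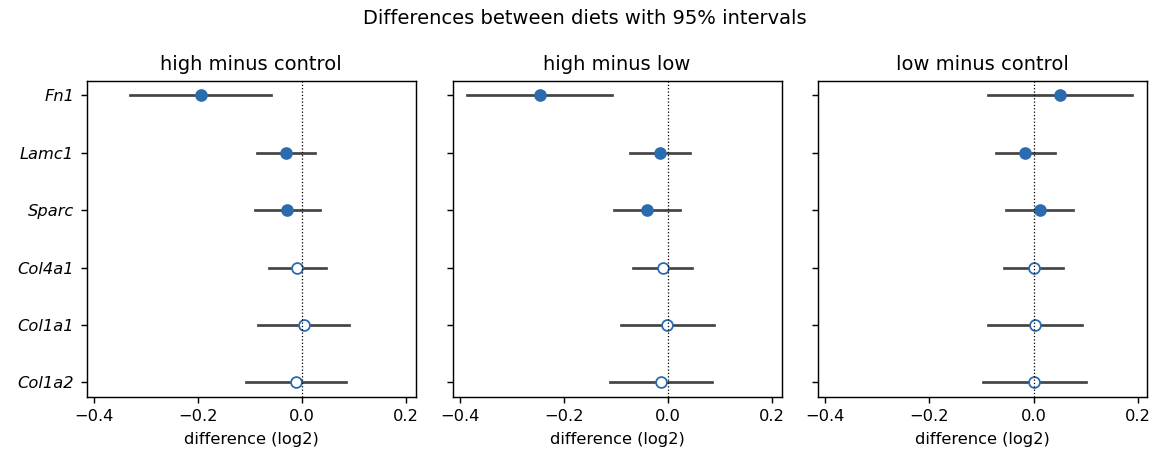
Differences between diets in log2 (points) with 95% intervals (lines) for 6 matrix genes; filled points come from the fit of tested genes and open points, for dim probe sets, from the fit of all genes. The Fn1 intervals run from -0.33 to -0.06 for high minus control and from -0.385 to -0.107 for high minus low, and the intervals of the other genes include 0.

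The tail mark, which per the series design told the rats of a cage apart, had no part in the choice of these genes, so it could be tested. Fn1 averaged 8.70 log2 in marked rats and also 8.70 in unmarked rats (13 each), a difference with diet in the model of +0.02 (SE 0.056, adjusted p = 0.982 in limma). Lamc1 differed by -0.03 (SE 0.022, adjusted p = 0.943) and Sparc by -0.04 (SE 0.025, adjusted p = 0.927), with marked rats lower. None of the 3 was called, as 0% of tested genes were, and 451 genes (5.32%) had an unadjusted p under 0.05, or 492 in the unmoderated test. These tests did not pair the rats of a cage. With cage as a random block in limma 0 genes were called and 597 had an unadjusted p under 0.05. In the fit of all genes Col4a1, Col1a1 and Col1a2 were not called either, with adjusted p of 0.982, 0.991 and 0.989.

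Whether the genes varied together from rat to rat was tested after the mean of each diet was removed, over 26 rats and 15 pairs, with permutation of rats within diets. None of the 15 pairs passed at an adjusted p under 0.05, and 1 pair had an unadjusted p under that value. This pair was Lamc1 and Sparc, with Pearson r = 0.433 (permutation p = 0.0396, adjusted p = 0.448) and Spearman rho = 0.413 (permutation p = 0.0476, adjusted p = 0.572), and r was 0.330 once the 2 rats most distant in Lamc1 from its median were left out. Fn1 had r between -0.0485 and 0.202 with the other 5 genes, the highest with Col1a2 (permutation p = 0.431, adjusted p = 0.719), and none of these relations passed.

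The collagen I chains, which are built into 1 protein, had r = 0.471 (permutation p = 0.0597, adjusted p = 0.448) and rho = 0.298 (permutation p = 0.189, adjusted p = 0.635), and r was 0.431 once the 2 rats most distant in Col1a1 from its median were left out. Within diets r was 0.875 on low, 0.306 on control and -0.413 on high, and the difference between these values was not tested. Without low rat 2, which had 6.98 log2 of Col1a1 and 7.05 of Col1a2, r was 0.199 over the other rats. With each of the 14 cages averaged first, Pearson r came to 0.868 (permutation p = 0.00297, adjusted p = 0.0445) and rho to 0.675, with r = 0.603 without the 2 farthest cages, so the call depended on the unit that was taken as independent.

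**Figure D4:**
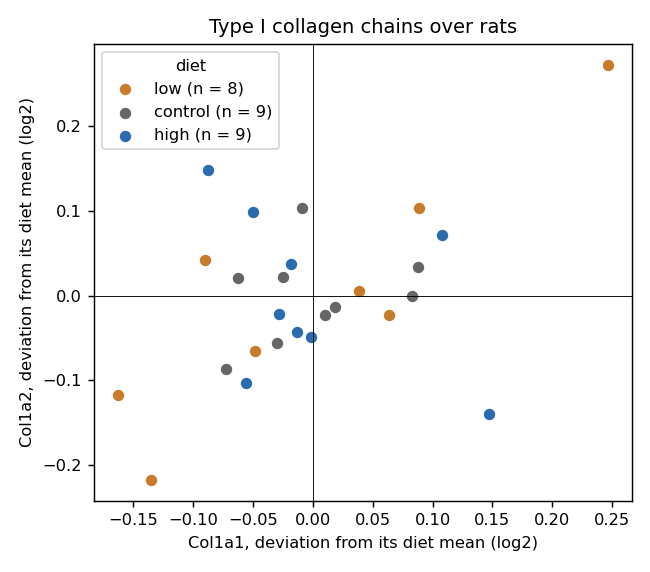
Deviation of Col1a2 from its diet mean against that of Col1a1 (both log2), with 1 point for each of 26 rats, coloured by diet. The point at the upper right is low rat 2, without which r is 0.199 instead of 0.471.

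As a description with no test, the tested genes whose values ran most closely with Fn1 over the 26 rats, diet means removed, were Pde7b (r = 0.715), Ret (0.686), Ubac1 (0.669), Sult1a1 (0.669) and ST7 (0.658). Pde7b degrades cyclic AMP, Ret is the signalling receptor for the GDNF family and Sult1a1 is a sulfotransferase. Of all tested genes 95% had an r with Fn1 below 0.339, and the nearest other matrix gene, Col1a2, stood at rank 2214 of 14505. The genes closest to Col4a1 were Usp40 (0.727), Acin1 (0.698), Tdp1 (0.691), Aurkc (0.672) and Ssr3 (0.671). Those closest to Col1a2 were Tff3 (0.748), Cd302 (0.721), Rapgef4 (0.715), Parva (0.711), an actin-binding adhesion protein, and Crym (0.682). Col1a1 stood at rank 603 of 14505 for Col1a2, and all these genes share arrays with the gene they were matched to.

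The rest of the matrix pathway was described from lists, with 0 genes called in any list and contrast. Of other basement membrane genes 10 of 17 had a probe set, and 1 of these, agrin (Agrn), lay above the minimum, at -0.02 log2 for high minus control and -0.03 for high minus low. In the fit of all genes 8 of 10 were lower on high than on control (45.8% of all genes) and 6 of 10 lower than on low (47.4%). The medians of these 10 were -0.013 and -0.005 log2. Lamb2, a laminin chain below the minimum at 6.82 log2, differed most, by -0.125 from control and -0.063 from low. For the difference from control the unadjusted p was 0.000952 and the adjusted p 0.998 in limma. Some dim genes of the protease and inhibitor list went the other way. Mmp9 differed by +0.171 from control and +0.207 from low, and Timp1 by +0.106 and +0.044. With dim genes included, 8 of 15 in that list were lower on high than on control and 9 of 15 than on low. Among interstitial matrix genes 4 of 6 tested genes had lower means on high than on control and 5 of 6 lower than on low. Their medians were -0.045 and -0.031. With dim genes included, 6 of 13 were lower on high than on control and 9 of 13 than on low, with medians of 0.006 and -0.02. Vitronectin (Vtn), an adhesive glycoprotein of plasma and pericytes, differed by -0.08 for high minus control and -0.05 for high minus low, and fibrillin 1 (Fbn1), which forms microfibrils, by -0.10 and -0.07.

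Of 8 tested matrix receptors 5 were lower on high than on control and 6 lower than on low. Integrin alpha 1 (Itga1), which with beta 1 binds collagens and laminins, averaged 7.05 log2 on high and 7.20 on control, a difference of -0.14 (SE 0.048, unadjusted p = 0.00611, adjusted p = 0.991 in limma), and it differed by -0.12 from low. Ddr2, a collagen receptor kinase, differed by -0.11 from control and -0.13 from low. In collagen assembly 7 of 10 genes were lower on high than on control and 5 of 10 lower than on low. Bmp1, the protease that trims procollagens, differed by -0.10 from control (SE 0.028, unadjusted p = 0.00215, adjusted p = 0.921 in limma) and -0.06 from low, and the collagen chaperone Serpinh1 by -0.03 and -0.11.

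Of 9 tested proteases and inhibitors 5 were lower on high than on control and 7 lower than on low, with medians of -0.012 in both, and the membrane metalloproteases Mmp16 and Mmp15 differed by -0.04 and +0.01 from control and by -0.04 and +0.06 from low. In the TGF-beta pathway, which induces many matrix genes including Fn1, 9 of 11 genes were lower on high than on control and 8 of 11 lower than on low, with medians of -0.026 and -0.027. Smad3, its transcriptional effector, differed by -0.08 from control and -0.10 from low, and endoglin (Eng), an endothelial co-receptor, by -0.09 and -0.07. The same background shares of lower genes as above, 49.4% and 44.8%, apply to these counts.

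**Figure D5:**
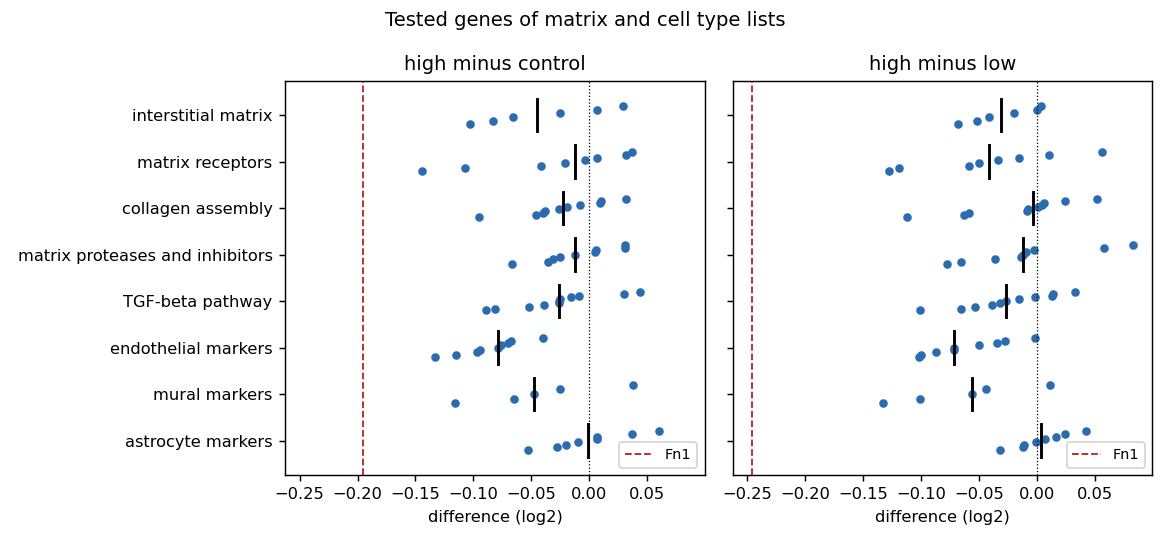
Differences in log2 of each tested gene (points) of matrix and cell type lists, with the list median (black bar) and the Fn1 difference (dashed red line), for high minus control and high minus low. Fn1 at -0.20 and -0.25 lies below every gene plotted, and of the plotted lists the endothelial one has the lowest median, -0.079 and -0.072. In lists not plotted, the choroid plexus marker Ttr lay lower than Fn1, at -0.52 (SE 0.655) and -0.276 (SE 0.675). The neuron marker Wfs1, also not plotted, lay at -0.134 and -0.243.

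Among marker lists of cell types 0 genes were called. All 9 tested endothelial markers were lower on high than on control (49.4% of all tested genes) and than on low (44.8%), with medians of -0.079 and -0.072. Of these 9 markers 8 were lower on low than on control (55.9%). Their mean per rat was 8.38 ± 0.04 log2 in low-diet rats (SD, n = 8), 8.41 ± 0.05 in control rats (n = 9) and 8.32 ± 0.04 in high-diet rats (n = 9). The means per rat ranged from 8.30 to 8.42 on low, from 8.33 to 8.46 on control and from 8.27 to 8.40 on high. The 5 tested mural markers were Abcc9, Acta2, Cspg4, Pdgfrb and Rgs5. Of these 4 were lower on high in both, and Cspg4 was higher. Per-rat means of the mural list ran from 8.49 to 8.69 on low, 8.52 to 8.62 on control and 8.48 to 8.57 on high. The 4 tested meningeal and fibroblast markers were Dcn, Ogn, Pdgfra and Slc6a13. Of these 2 were lower on high than on control and 3 lower than on low. Their per-rat means were 8.53 to 8.82 on low, 8.59 to 8.88 on control and 8.58 to 8.74 on high. Of 10 hippocampal neuron markers 9 were lower on high than on control and 7 lower than on low, with medians of -0.012 and -0.034, and 3 were lower on low than on control. Astrocyte markers split 4 lower and 4 higher on high in both. The part of these cell types in the Fn1 difference was not tested.

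In a comparison chosen after the data were seen, the 6 matrix genes were set against the per-rat means of 6 marker lists. Diet means were removed, and 0 of 36 relations passed at an adjusted p under 0.05. The choroid plexus list was Ttr alone, its only tested gene. The 3 relations with the smallest permutation p of r were Col1a2 with the meningeal and fibroblast list (r = 0.526, permutation p = 0.00995, adjusted p = 0.309; rho = 0.557, permutation p = 0.00441, adjusted p = 0.159; r = 0.497 without the 2 farthest rats and 0.877 over the means of 14 cages), Fn1 with the endothelial list (r = 0.460, permutation p = 0.0179, adjusted p = 0.309; rho = 0.467, permutation p = 0.0202, adjusted p = 0.364; r = 0.400 without the 2 farthest rats and 0.197 over cages) and Col4a1 with the astrocyte list (r = -0.474, permutation p = 0.0257, adjusted p = 0.309; rho = -0.447, permutation p = 0.0313, adjusted p = 0.376; r = -0.356 without the 2 farthest rats and -0.645 over cages). Over cages r was larger in size than that of Fn1 and the endothelial list for other relations too, with 0.816 for Col1a1 and the meningeal and fibroblast list, -0.695 for Lamc1 and the endothelial list and -0.691 for Lamc1 and the mural list, none of them tested over cages.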

How the data were processed

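The table the authors deposited holds log2 probe set values of 26 arrays, 29214 probe sets with 0 missing values. Tools named per the submitters' processing notes are GCRMA and Partek 6.6, whose roles are not stated there. No further scaling was applied. Of the probe sets 15310 had 1 gene symbol in the array annotation, 323 several and 13581 none. For each gene the probe set of highest mean was kept, and genes at or above 6.94 log2, the median of all probe sets, were tested.

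Linear models with diet as a factor were fitted over all tested genes with limma 3.58.1 in R 4.3.3, with 2-sided tests and Benjamini-Hochberg adjustment over all of them, called under 0.17, a false discovery rate named in the series design. Covariation used 100000 permutations within diets, which took cage mates as independent. The procedures were tested on simulated data. The genes and lists were chosen with earlier results of these data known. All 6 genes with values are described. For Fn1, Col4a1 and Col1a2 the 5 closest genes are named, and for each pathway list the 2 tested genes with the smallest p over diets. Lamb2, Mmp9 and Timp1, dim genes, are named besides these, after their values were seen. Lists of cell types served as markers. Alternatives changed the intensity filter, scaling, cage, weights, prior, outlying values, moderation, tail mark, diets fitted, threshold and arrays. Serum vitamin D was not analysed here.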

Additional observations from a re-analysis of the deposited data

Results flagged for a closer look

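Among 18 groups of rats, 6 genes on 3 diets, 1 had a rat far from the others by Dixon's test at the 95% level, and chance gives about 1 in 20. High rat 20 had 5.92 log2 of Col4a1, and the nearest rat of its diet had 5.96, a gap of 0.552 of the range of that diet. Col4a1 lies below the intensity minimum.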

How the results depend on the processing

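No setting that was run called a matrix gene. The smallest adjusted p of Fn1 over these settings was 0.225, for high minus low when each gene's values beyond 2 SD of the diet mean were dropped, which dropped 0 values of Fn1. In that setting 17 genes were called over the 3 diets, 15 for high minus control and 30 for high minus low. For high minus low 1 gene was called with quantile normalization, 1 with centring on array medians, 1 with the tail mark as a covariate and 2 at an adjusted p under 0.31. Leaving out each rat in turn gave 0 to 3 genes over the 3 diets, 0 to 1 for high minus control, 0 to 3 for high minus low and 0 to 1 for the tail mark. Genes were called without control rat 17 or high rat 25 (each in all of the first 3), without low rat 2, low rat 3 or high rat 22 (high minus low) and without high rat 21 (tail mark). Low minus control gave 0 throughout. Over the means of 14 cages 1 pair of matrix genes covaried, Col1a1 and Col1a2 (r = 0.868), against 0 over rats. Fn1 kept its sign in all 26 fits without 1 rat, from -0.28 to -0.21 for high minus low and from -0.22 to -0.16 for high minus control. Fn1 was chosen by its difference in these rats, so a kept sign is a description and adds no support. Differences of Col4a1, Col1a1 and Col1a2 lay near 0 and changed sign in some of these fits, and for Col4a1 and Col1a2 high minus control also over cage means. A stricter minimum of 9.20 log2 kept Sparc alone. Each gene had 1 probe set, so no other could be compared. Cage means as the unit for the differences were chosen after seeing the data.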
